A study of Alligator mississippiensis with 4 samples.

Results

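Dorsal and ventral dermis of alligator overlapping scales were compared at the bud stage, Es22. The comparison rests on 2 of the 4 libraries of the series, and on the 10142 of 10466 rows of the deposited table that had a mean of at least 1 CPM (the usual read count per gene scaled by library size, here with the TMM factors explained below) over these 2 libraries. Both groups were skin of untreated Alligator mississippiensis embryos from fertilized eggs, taken from the back or from the belly side, and RNA was taken from dermis freed of its epidermis. There is 1 library a side in the labels, while the methods state that replicate samples were prepared, and the number and sex of the embryos behind a library are not given in the sources used here. The other 2 libraries hold the same regions at the placode stage, Es19.

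The dermis is the connective tissue of the skin, made by fibroblasts that lay down collagen and proteoglycans, and it instructs the overlying epidermis where and what kind of appendage to form. Fibroblasts of different body regions come from different parts of the embryo and carry transcription factors of their origin. Dorsal skin of vertebrates receives dermis from the somites, while the dermis of the belly and flank comes from the lateral plate. Late embryonic dermis also holds vessels, nerves, pigment cells and, at its deep edge, muscle.

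Fibroblast genes dominated both libraries. The type I collagen chain COL1A1 stood at 244337 CPM dorsally and 208400 CPM ventrally, and the matrix protein SPARC at 25694 and 18808 CPM. The 13 fibroblast markers with a row summed to 444058 CPM dorsally and 354806 CPM ventrally, so the most abundant transcripts were those of dermis. With the TMM factors the whole columns summed to 1270170 CPM dorsally and 1106230 CPM ventrally. Each marker sum is a share of its own column total, and the higher dorsal sum partly reflects the higher dorsal total. Markers of epidermis and of skeletal muscle were also present, and they are given below beside the genes they moved with. The table held 13220855 reads for the dorsal and 10722075 reads for the ventral library, and 1 read was worth 0.0961 and 0.103 CPM. Intervals beside ratios are exact binomial 95% intervals on the reads. They cover counting error only, because reads without molecular identifiers are not independent molecules and there is no replicate library, so no test of dorsal against ventral dermis was possible.

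A row was counted as different when log2(CPM + 1) lay at least 1 apart, which is 2-fold on that scale and understates the change of low genes. By this rule 272 of 10142 rows (2.68%) lay on the dorsal side and 197 (1.94%) on the ventral side. These 2 shares are the background against which the gene lists below are read. Most of the transcriptome was alike in both regions, with 86.1% of rows less than 1.5-fold apart and a median log2 difference, dorsal over ventral, of 0.00. Of the higher rows in dorsal dermis 45 reached 4-fold and 12 reached 8-fold, against 30 and 3 in ventral dermis. The counting interval lay wholly past 2-fold for 153 rows in dorsal and 108 rows in ventral dermis. Without the authors' TMM factors, which correct library size for RNA composition, the median over all rows was -0.18, and 184 rows were past 2-fold on the dorsal and 277 on the ventral side. The dorsal share of these rows is therefore 58.0% with the TMM factors and 39.9% without them. At the dorsal edge of the rule lay TRPC5, with 3.27 against 1.13 CPM just outside. On the ventral side SEMA6B, at 25.3 against 51.6 CPM, lay just inside.

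**Figure D1:**
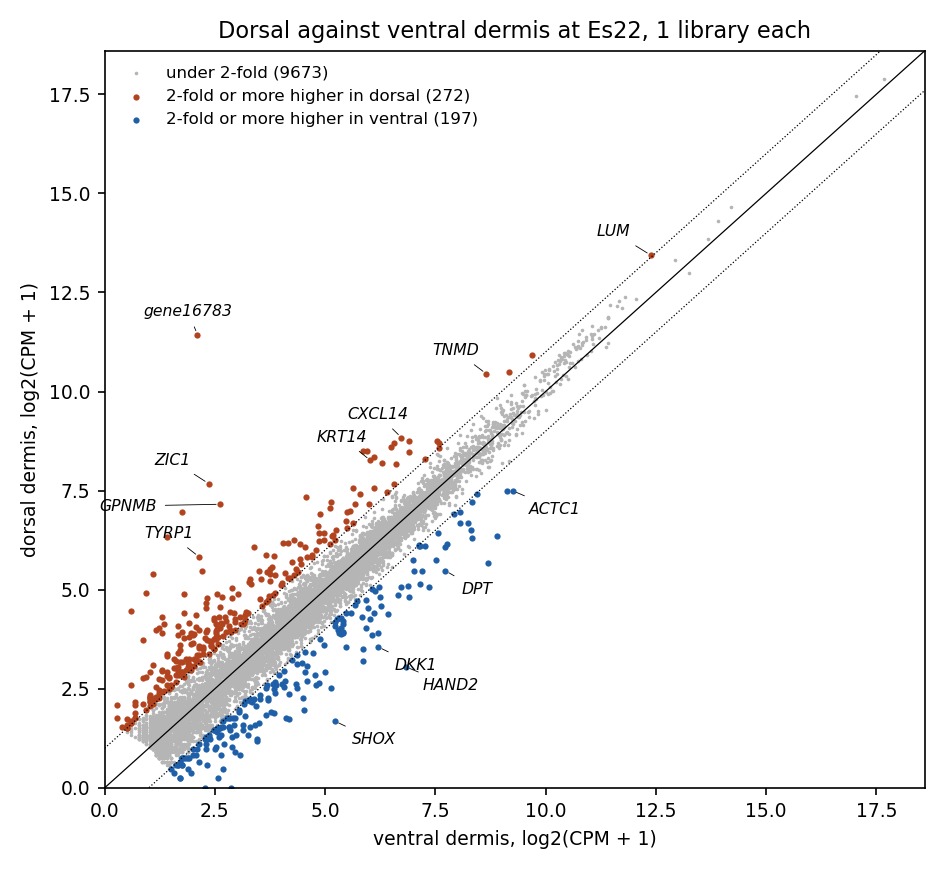
Each point is 1 of 10142 rows of the table, with ventral dermis on the x axis and dorsal dermis on the y axis, both as log2(CPM + 1) of 1 library at Es22. The solid line marks equal values and the dotted lines 2-fold. Most rows lie between the dotted lines, and ZIC1, GPNMB and TYRP1 stand far to the dorsal side and HAND2, SHOX and DKK1 to the ventral side.

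The row furthest apart carries no gene symbol. This row, gene16783, stood at 2774 CPM dorsally and 3.30 CPM ventrally, a ratio of 840 (95% interval 595 to 1228), and was among the abundant transcripts of the dorsal library. It is named here because of its value, after the values were seen, and the table gives no further annotation for it.

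Among genes with a symbol, ZIC1, a zinc finger transcription factor of the dorsal neural tube and somites, headed the dorsal side. It stood at 204 CPM dorsally and 4.13 CPM ventrally, a ratio of 49.4 (95% interval 36.1 to 69.3). The melanosome glycoprotein GPNMB followed with 142 against 5.16 CPM, a ratio of 27.5 (95% interval 20.7 to 37.2). Melanin synthesis was also represented by the enzyme TYRP1, at 55.9 against 3.40 CPM.

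Several of the other dorsal genes are secreted or belong to secretory cells. Osteocrin (OSTN), a secreted peptide, stood at 43.4 CPM dorsally and 3.61 CPM ventrally, a ratio of 12.0 (95% interval 8.52 to 17.5). Chromogranin A (CHGA), a protein of secretory granules, was at 14.9 against 1.24 CPM, the disulfide isomerase AGR2 at 15.3 against 1.34 CPM and the proteoglycan SPOCK1 at 14.1 against 1.44 CPM. The membrane peptidase ECEL1 was at 21.1 against 0.516 CPM, the latter being 5 reads, a ratio of 41.0 (95% interval 17.3 to 127). Enzymes made up most of the remainder. The glutathione transferase GSTT1 was the most abundant of these 15 genes, at 363 against 57.0 CPM, and ENDOU, DHDH and the cytochrome P450 CYP1C1 lay between 12.3 and 18.7 CPM in dorsal and between 0.825 and 1.55 CPM in ventral dermis. KIAA1324 at 29.1 against 0.929 CPM, C11ORF34L at 28.8 against 2.48 CPM and the epithelial keratin KRT4 at 162 against 22.7 CPM completed the 15.

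On the ventral side the first 3 genes are transcription factors. HAND2, a basic helix-loop-helix factor of lateral plate derivatives and limb buds, stood at 113 CPM ventrally and 7.30 CPM dorsally, a ratio of 15.4 (95% interval 12.2 to 19.7). The limb homeobox gene SHOX was at 36.3 against 2.21 CPM, a ratio of 16.4 (95% interval 10.8 to 26.3). GATA5, a zinc finger factor of heart and lateral plate, had 61 reads (6.29 CPM) in ventral and 0 in dorsal dermis, where a floor of 3 reads is 0.288 CPM, so it was at least 21.8-fold higher in the ventral library against that floor. With the counting error of both libraries, the exact 95% interval of the ratio starts at 17.2. TBX20, a T-box factor of heart and lateral plate, likewise had 37 reads in ventral and 0 in dorsal dermis, at least 13.2-fold higher against the same floor, with an exact 95% interval that starts at 10.2. The homeobox gene LMX1A, at 17.0 against 2.31 CPM, and SIM2, with 97 against 13 reads, bring the transcription factors among the 15 ventral genes to 6.

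Secreted and matrix proteins were the next group. DKK1, an inhibitor of WNT signalling, stood at 72.6 CPM ventrally and 10.8 CPM dorsally, a ratio of 6.75 (95% interval 5.52 to 8.32). Dermatopontin (DPT), a small protein of dermal collagen fibrils, was at 210 against 43.6 CPM, a ratio of 4.83 (95% interval 4.36 to 5.35), and the protease inhibitor A2ML1 at 162 against 32.6 CPM. Heparanase 2 (HPSE2), a relative of the enzyme that cuts heparan sulphate, was at 34.2 against 4.71 CPM, and the secretory granule protein SCG3 at 5.47 against 0.384 CPM. The rest were the splicing factor relative RBFOX1L at 72.4 against 14.0 CPM, XIRP1, an actin-binding protein of striated muscle, at 21.7 against 3.84 CPM, the small GTPase RASD2 at 7.43 against 0.769 CPM and the GABA receptor subunit GABRD. For GABRD the dorsal value was 2 reads, and the ratio of 25.8 has a 95% interval of 6.76 to 219.

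**Figure D2:**
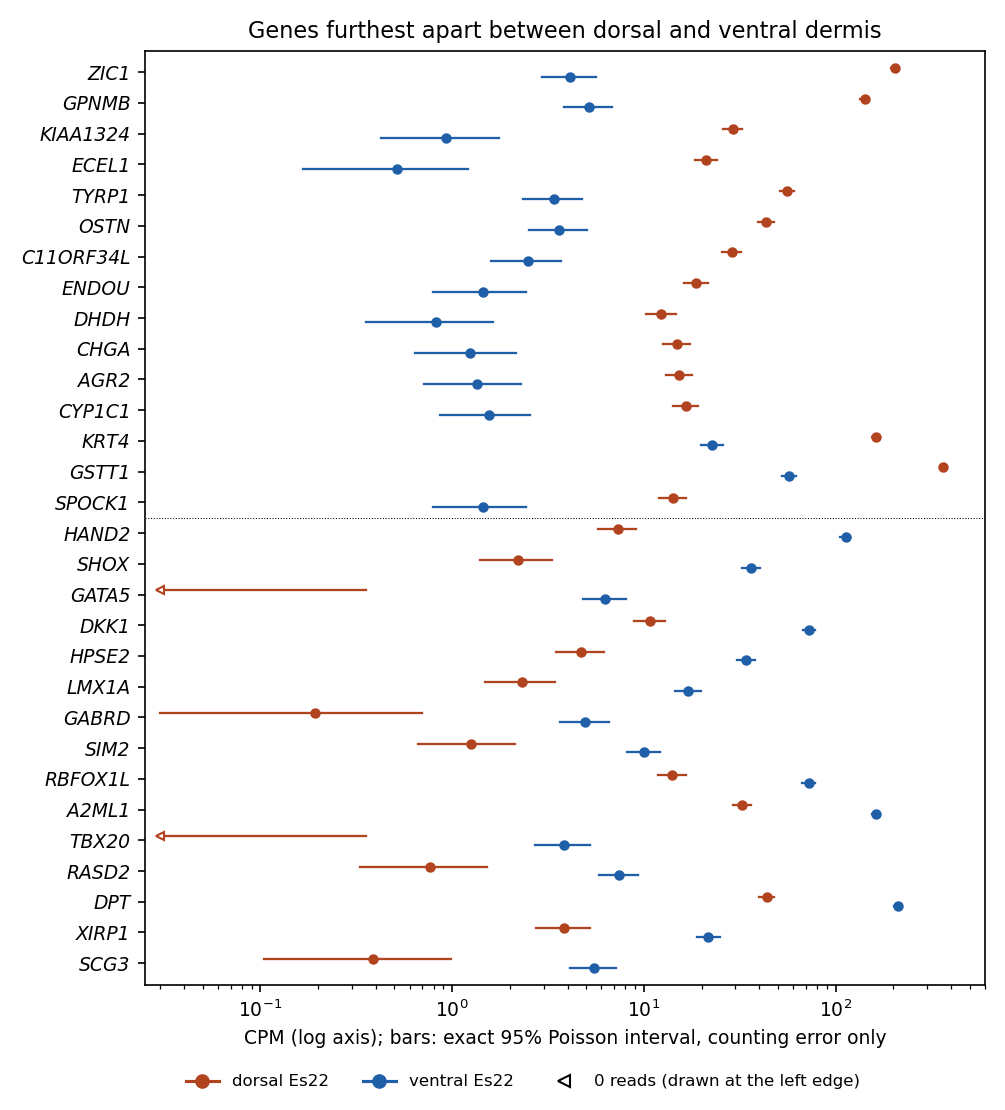
CPM on a log axis of the 15 genes with a symbol that stood furthest to the dorsal side (top) and the 15 furthest to the ventral side (bottom), 1 library each, with exact 95% Poisson intervals that cover counting error only. The genes were picked for the distance between their values, and GATA5 and TBX20 had 0 reads in dorsal dermis.

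Beyond ZIC1, HAND2, GATA5, SHOX and TBX20, other patterning factors lay on both sides. Of the 27 limb-type and paired-type homeobox genes, 5 were past 2-fold in ventral and 3 in dorsal dermis. The hindlimb factor PITX1 was at 8.46 CPM ventrally and 1.54 CPM dorsally, its relative PITX3 at 6.40 against 1.44 CPM, BARX1 at 11.7 against 2.59 CPM and IRX1 at 62.1 against 22.3 CPM. On the dorsal side were the tendon factor MKX, at 66.6 against 22.5 CPM, DLX3, at 24.8 against 11.6 CPM, and DLX6, at 3.17 against 1.03 CPM. The most abundant genes of this list, MEOX2 at 251 and 288 CPM and PRRX2 at 141 and 173 CPM in dorsal and ventral dermis, were less than 1.5-fold apart.

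Hox genes give cells their position along the body axis. Of 17 with a mean of at least 1 CPM, 3 were higher in ventral dermis by the 2-fold rule and 0 in dorsal dermis. HOXA9 stood at 15.9 against 4.80 CPM, HOXC6 at 36.1 against 16.0 CPM and HOXB2 at 14.4 against 6.24 CPM. The most abundant ones were HOXA7, at 70.8 CPM dorsally and 61.4 CPM ventrally, HOXB7, at 55.1 and 41.6 CPM, and HOXC10, at 33.6 and 64.0 CPM. Whatever the size, 14 of 17 were higher in ventral dermis, with a median log2 difference of -0.43, and 14 of 17 were also higher there without the TMM factors. A pseudocount of 5 CPM leaves 1 Hox gene past 2-fold, and values without the TMM factors give 5.

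T-box factors were mostly higher in ventral dermis, 6 of 7 whatever the size, with a median log2 difference of -0.51. Apart from TBX20, no T-box gene of the 7 measured was past 2-fold, with TBX18 at 74.1 and 99.4 CPM, TBX15 at 29.6 and 41.1 CPM and TBX3 at 19.3 and 38.0 CPM in dorsal and ventral dermis. None of 5 forkhead genes was past 2-fold, and FOXD1 stood at 123 and 132 CPM, a ventral to dorsal ratio of 1.07 (95% interval 0.990 to 1.16). Of 10 ZIC and other dorsal patterning genes, 3 were past 2-fold in dorsal and 1, SIM2, in ventral dermis. Whatever the size, 6 of 10 were higher in dorsal dermis, with a median log2 difference of 0.18. Without the TMM factors 5 of 10 were so, with a median of 0.01. MSX2, a homeobox target of BMP signals, was at 17.7 CPM dorsally and 4.54 CPM ventrally. EN1, a homeobox factor of ventral limb ectoderm and of dermal fibroblasts in mice, was below 2-fold at 80.9 and 54.2 CPM.

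Signalling pathways had few members past 2-fold, and the BMP and TGF-beta list given below had shares near those of all rows. WNT genes had higher shares on both sides, and hedgehog and retinoic acid genes on the ventral side, each from few genes. Of 41 WNT pathway genes, 4 (9.76%) were past 2-fold on the dorsal and 2 (4.88%) on the ventral side. Over all rows these shares were 2.68% and 1.94%. The dorsal genes were LGR5, a receptor for R-spondins, at 26.5 against 4.02 CPM, a ratio of 6.59 (95% interval 4.70 to 9.47), RSPO3, an R-spondin that strengthens WNT signals, at 41.0 against 12.5 CPM, the Dickkopf relative DKK3 at 174 against 84.0 CPM and the receptor FZD10 at 16.6 against 7.74 CPM. DKK1 and the secreted antagonist SFRP4, at 5.57 against 1.15 CPM, were the ventral genes. The abundant ligands WNT11, at 702 CPM dorsally and 609 CPM ventrally, and WNT5A, at 329 and 440 CPM, were less than 1.5-fold apart. So was the antagonist SFRP2, at 802 and 867 CPM.

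In the hedgehog pathway, ligands relieve the block that PTCH receptors place on GLI transcription factors. Of 10 genes, 3 (30%) were at least 2-fold higher in ventral dermis, against 1.94% of all rows, and 0 in dorsal dermis. GLI1, a transcription factor that is also a target of the pathway, stood at 59.9 CPM ventrally and 25.9 CPM dorsally, a ratio of 2.31, and GLI2 at 323 against 147 CPM, a ratio of 2.20 (95% interval 2.07 to 2.34). The receptor PTCH1 was at 174 against 122 CPM. The median log2 difference of the 10 genes was -0.40, and -0.53 without the TMM factors.

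Retinoic acid is made from retinol by RDH10 and the ALDH1A enzymes. Of the 9 genes of this pathway, 2 (22.2%) were past 2-fold in ventral dermis, against 1.94% of all rows, and 0 in dorsal dermis. ALDH1A2, the enzyme of mesoderm, was at 30.8 CPM ventrally and 6.53 CPM dorsally, a ratio of 4.72 (95% interval 3.62 to 6.24). RDH10 was at 140 against 68.9 CPM, a ratio of 2.03 (95% interval 1.85 to 2.22). ALDH1A3, at 67.3 CPM dorsally and 84.5 CPM ventrally, and the receptor RARG, at 107 and 110 CPM, were less than 1.5-fold apart. Of 33 BMP and TGF-beta genes, 1 was past 2-fold on either side (3.03% each), against 2.68% and 1.94% of all rows. The dorsal gene was the TGF-beta-induced matrix protein TGFBI, at 1948 CPM dorsally and 827 CPM ventrally. BMP3, at 13.9 and 38.7 CPM, was the ventral gene. Of 16 FGF and 16 IGF pathway genes, FGF16, at 1.83 CPM dorsally and 4.85 CPM ventrally, and STC2, at 0.961 and 3.30 CPM, passed. That is 1 gene of low level on either list, and 0 of 8 Notch genes passed. The chemokine CXCL14 was at 457 CPM dorsally and 105 CPM ventrally, a ratio of 4.35 (95% interval 4.07 to 4.66), and with the vessel growth factor ANGPT1, at 6.44 against 2.17 CPM, made up the 2 of 20 chemokine and cytokine genes that passed.

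Collagen genes were mostly higher in dorsal dermis. Of 24 collagens, 22 were higher in dorsal dermis whatever the size, with a median log2 difference of 0.42, and 19 were so without the TMM factors, with a median of 0.22. By the 2-fold rule 4 lay on the dorsal and 0 on the ventral side. These were COL23A1, a transmembrane collagen, at 188 against 48.3 CPM, COL8A2, a short-chain collagen, at 22.3 against 3.92 CPM, the cartilage collagen COL9A3 at 16.6 against 4.75 CPM and the hemidesmosome collagen COL17A1 at 4.52 against 1.34 CPM, which is also on the epidermal list. None of 17 collagen processing genes passed. Among the small leucine-rich proteoglycans and related proteins, lumican (LUM), which regulates the width of collagen fibrils, was at 11123 CPM dorsally and 5351 CPM ventrally, a ratio of 2.08 (95% interval 2.06 to 2.10), tenomodulin (TNMD), a membrane protein of tendon and ligament, at 1396 against 402 CPM, a ratio of 3.47 (95% interval 3.35 to 3.60), and CHAD at 7.49 against 2.89 CPM. These 3 of 12 genes were dorsal, and DPT was the 1 ventral gene. Without the TMM factors LUM and CHAD, with log2 differences of 0.86 and 0.93, lay below 2-fold.

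Of 33 glycoproteins and elastic fibre genes, 3 were past 2-fold on the dorsal and 2 on the ventral side. The cell adhesion protein SPON1 was at 290 CPM dorsally and 76.8 CPM ventrally, MATN4 at 18.9 against 5.67 CPM and CILP2 at 6.82 against 2.58 CPM. Thrombospondin 3 (THBS3) went the other way, with 304 CPM ventrally and 102 CPM dorsally, as did the laminin chain LAMC3 at 7.74 against 2.02 CPM. Of 31 matrix proteases and inhibitors, the protease inhibitors SERPINE2, at 143 against 62.5 CPM, and TIMP4, at 25 against 2 reads, were past 2-fold in dorsal dermis and 0 in ventral dermis. On the list of 6 tendon markers, TNMD and MKX were past 2-fold in dorsal and the immediate-early gene EGR1 in ventral dermis, while THBS4, at 125 and 67.6 CPM, and the cornea and tendon proteoglycan KERA, at 161 and 96.2 CPM in dorsal and ventral dermis, were below 2-fold. Among 24 cadherins and integrins, 3 were dorsal, with the collagen receptor subunit ITGA10 at 20.4 against 6.60 CPM. The other dorsal genes were CDH1, which is also on the epidermal list, and ITGB6, with log2 differences of 1.43 and 1.32. On the ventral side were 2, with the subunit ITGA4 at 73.5 against 32.8 CPM.

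Among the marker lists, those of epidermis, melanocytes and skeletal muscle differed most between the libraries. In bulk tissue, fewer cells of a type and less RNA per cell cannot be told apart. Of 49 epidermal markers listed, 19 had a row, and all 19 were higher in dorsal dermis, or 18 without the TMM factors. By the 2-fold rule 13 of 19 were higher in dorsal and 0 in ventral dermis, against 2.68% of all rows, with a median log2 difference of 1.66. The desmosomal protein DSP stood at 19.7 CPM dorsally and 3.20 CPM ventrally, a ratio of 6.16 (95% interval 4.21 to 9.30) and the envelope protein PPL at 120 against 28.6 CPM. Basal keratins were abundant, with KRT15 at 416 against 93.0 CPM and KRT14 at 306 against 64.2 CPM. Plakoglobin (JUP), which mesenchymal cells also use, was at 449 and 410 CPM. The 19 markers summed to 1862 CPM dorsally and 789.9 CPM ventrally, and to 461 and 435 CPM at Es19. The sum thus was higher in the dorsal Es22 library than in any of the other 3. The part of epidermal RNA in the dorsal values of KRT4, MSX2, DLX3, COL17A1 and the other genes above was not tested.

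Melanocyte markers were also on the dorsal side. All 12 with a row were higher in dorsal dermis, also without the TMM factors, and 6 of 12 passed the 2-fold rule. Besides TYRP1, the melanin enzyme DCT stood at 58.1 CPM dorsally and 11.7 CPM ventrally, a ratio of 4.99 (95% interval 4.07 to 6.15), and PMEL, which forms the fibrils of melanosomes, at 353 against 118 CPM. GPR143, a receptor of melanosomes, was at 11.4 against 2.89 CPM, the receptor EDNRB2 at 82.4 against 35.3 CPM and the channel TRPM1 at 49.6 against 21.0 CPM. The neural crest factor SOX10 lay below 2-fold with 39.1 and 24.5 CPM. The summed level of the 12 was 762 CPM dorsally and 286 CPM ventrally.

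Skeletal muscle genes were the largest listed group on the ventral side. Of 32 markers, 24 were at least 2-fold higher in ventral and 0 in dorsal dermis, against 1.94% of all rows, and 31 of 32 were higher in ventral dermis whatever the size, with and without the TMM factors. Cardiac actin (ACTC1), an actin of embryonic skeletal muscle as well, was at 609 CPM ventrally and 180 CPM dorsally, the calcium sensor TNNC2 at 217 against 69.7 CPM and creatine kinase (CKM) at 147 against 43.2 CPM. The thin filament ruler NEB, at 65.5 against 13.5 CPM, had a ratio of 4.87 (95% interval 4.05 to 5.89), and myogenin (MYOG), a transcription factor of differentiating myoblasts, was at 15.4 against 5.19 CPM. The 32 markers summed to 2186 CPM ventrally and 668 CPM dorsally, and to 359.7 and 339 CPM at Es19.

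Immediate-early genes, which are transcribed within minutes of a stimulus, formed the other ventral group. Of 39 immediate-early and stress genes, 14 were past 2-fold in ventral and 1 in dorsal dermis, with a median log2 difference of -0.58. The orphan receptor NR4A1 stood at 319 CPM ventrally and 78.0 CPM dorsally, a ratio of 4.09 (95% interval 3.78 to 4.42). The AP-1 subunits FOS, at 315 against 90.6 CPM, FOSB, at 84.8 against 20.1 CPM, JUNB, at 265 against 101 CPM, and JUN, at 266 against 124 CPM, were all higher in the ventral library. EGR1, a zinc finger factor, was at 558 against 177 CPM and EGR4 at 64.1 against 18.3 CPM. The small heat shock protein HSPB1, at 38.9 against 18.4 CPM, was also past 2-fold on the ventral side, while the abundant chaperone HSP90B1 was below it, at 2306 CPM dorsally and 1806 CPM ventrally. The 1 dorsal gene, IER5, had 25 and 6 reads. Beside 10142 kept rows, the muscle and the immediate-early and stress lists held 32 and 39 genes. The epidermal and melanocyte lists held 19 and 12. Muscle and immediate-early or stress genes together made up 38 of the 194 genes (19.6%) past 2-fold in ventral dermis once rows with the same symbol were summed, and epidermal and melanocyte markers 19 of the 269 (7.06%) in dorsal dermis. The lists were chosen with earlier results of these data known, and these shares depend on that choice. The part that handling of the tissue or muscle in it had in the values above was not tested.

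**Figure D3:**
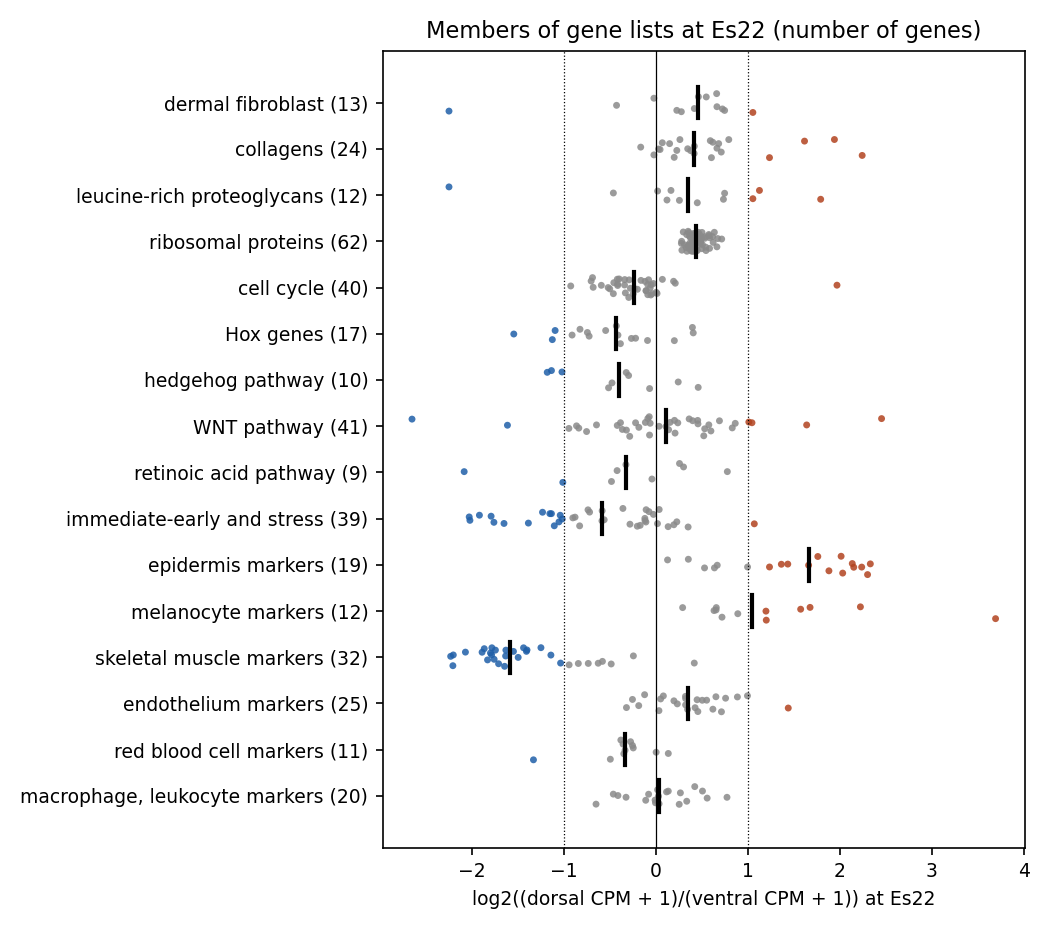
Each point is a gene of the list named on the y axis, placed by its log2 difference, dorsal over ventral, of CPM + 1 at Es22, and black bars are medians. Red and blue points lie at least 2-fold to the dorsal or ventral side. Epidermal markers (13 of 19) and melanocyte markers (6 of 12) reach past the dorsal line, skeletal muscle markers (24 of 32) and immediate-early and stress genes (14 of 39) past the ventral line, and ribosomal proteins form a tight group.

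Markers of vessels, blood and immune cells differed less by the 2-fold rule. Of 25 endothelial markers, 1 was past 2-fold, VWF at 17.4 CPM dorsally and 5.78 CPM ventrally, and the angiopoietin receptor TEK stood at 233 and 173 CPM. Whatever the size, 21 of 25 were higher in dorsal dermis, 18 without the TMM factors, with a median log2 difference of 0.35. Haemoglobin HBA1 was at 8092 CPM dorsally and 9774 CPM ventrally, and of 11 red blood cell markers only CA2, with 10 and 38 reads, passed. Of these 11, 9 were higher in ventral dermis whatever the size, and 11 without the TMM factors, with a median of -0.33 with the factors. Of 20 macrophage and leukocyte markers 0 passed. The 15 Schwann cell and neuron markers had 1 on either side, and the 16 cartilage and bone markers 2 on either side.

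All 62 cytosolic ribosomal protein genes were higher in dorsal dermis, by log2 differences of 0.28 to 0.72 with a median of 0.44, and all 62 were also on that side without the TMM factors, with a median of 0.24. At Es19 their median was -0.05. RPS20 stood at 4981 CPM dorsally and 3231 CPM ventrally, a ratio of 1.54 (95% interval 1.52 to 1.56). Cell cycle genes lay the other way, with 34 of 40 higher in ventral dermis, 38 without the TMM factors, and a median of -0.24. The topoisomerase TOP2A was at 480 CPM dorsally and 642 CPM ventrally, and HMGB2 at 486 and 640 CPM. The mitotic kinase AURKB was the exception past 2-fold, at 75.2 CPM dorsally and 18.5 CPM ventrally, a ratio of 4.07 (95% interval 3.46 to 4.82). Respiratory chain genes were near zero, with 43 of 56 higher in dorsal dermis but 24 of 56 without the TMM factors, and none of the 62 ribosomal protein or 56 respiratory chain genes passed 2-fold.

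The feather- and scale-associated gene lists that the study took from earlier transcriptomes of chicken skin had members on both sides. Of 86 feather-associated genes, 52 had a row, and 3 of these (5.77%) were past 2-fold in dorsal and 2 (3.85%) in ventral dermis. Besides ZIC1, the carboxypeptidase relative CPXM2 was at 70.2 CPM dorsally and 20.5 CPM ventrally, and CCDC170 and JUN were the ventral genes. Of 135 scale-associated genes, 76 had a row and 74 passed the filter. Of these, 6 (8.11%) were past 2-fold in dorsal and 5 (6.76%) in ventral dermis. PI16, a secreted protein of fibroblasts, stood at 17.2 CPM ventrally and 4.13 CPM dorsally, a ratio of 4.17 (95% interval 2.97 to 5.98), and SLITRK4, a transmembrane protein known from neurons, at 101 CPM dorsally and 48.7 CPM ventrally. The other dorsal scale-associated genes were CDH1, COL17A1, GPR143, RHOV and PPM1H. Of these, CDH1 and COL17A1 are also on the epidermal list and GPR143 is on the melanocyte list. Besides PI16, the ventral scale-associated genes were SHOX, PITX1, SFRP4 and TMEM132E. The shares past 2-fold of both lists lay above the 2.68% (dorsal) and 1.94% (ventral) of all rows. The medians of the feather- and scale-associated lists, 0.01 and 0.13, lay near that of all rows.

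The Es19 libraries, which are separate from those at Es22, were set beside these values. At Es19, 9988 rows had a mean of at least 1 CPM. Of these, 258 were past 2-fold in dorsal and 289 in ventral dermis. Of the 272 rows higher in dorsal dermis at Es22, 58 (21.3%) were also at least 2-fold higher there at Es19. That is 22.5% of the 258 rows, and 10 of the 272 (3.68%) were at least 2-fold higher in ventral dermis. Of the 197 rows higher in ventral dermis, 47 (23.9%) were so at Es19, which is 16.3% of 289 rows, and 5 were higher in dorsal dermis. ZIC1, with log2 differences of 5.32 at Es22 and 6.84 at Es19, HAND2, with -3.78 and -4.95, SHOX, with -3.54 and -3.26, and GATA5, with -2.87 and -3.75, were on the same side at both stages, as were TYRP1, CXCL14, DPT and ALDH1A2. KRT14, with 2.24 and -0.01, EGR1, with -1.65 and -0.51, and LGR5, with 2.45 and 0.76, were past 2-fold at Es22 and below it at Es19. Whether a difference changed between the stages was not tested.

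**Figure D4:**
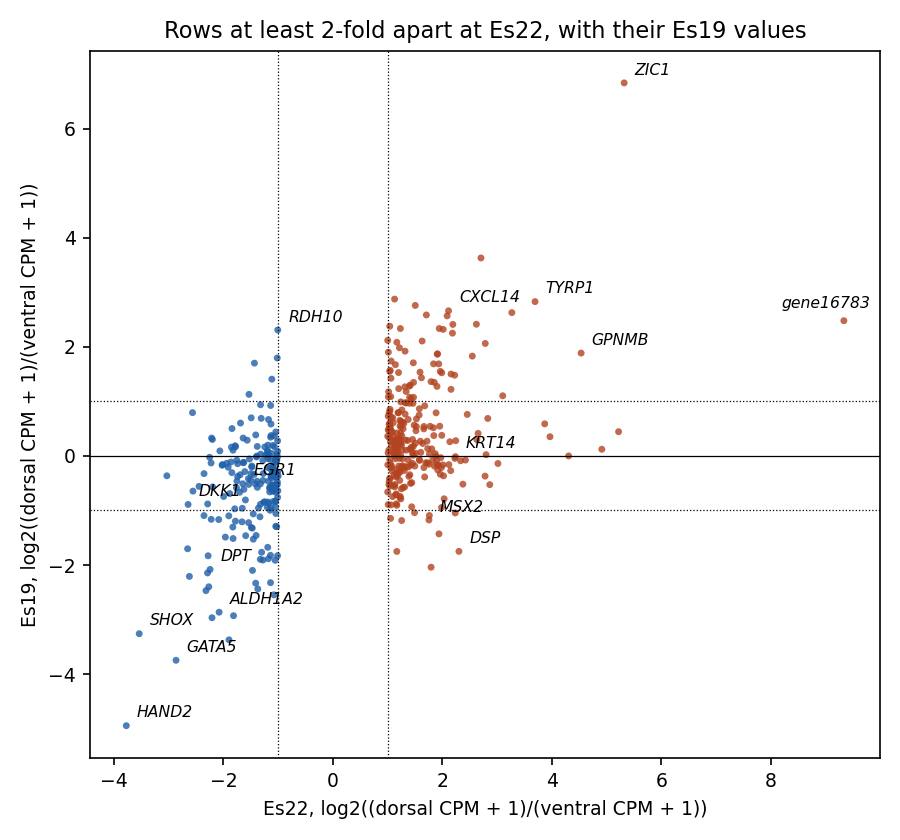
Rows at least 2-fold apart at Es22, with the log2 difference, dorsal over ventral, of CPM + 1 at Es22 on the x axis and at Es19 on the y axis, 1 library for each region and stage. Dotted lines mark 2-fold. ZIC1, HAND2, SHOX and GATA5 lie far out on the same side at both stages, KRT14 lies near 0 at Es19, and RDH10 and MSX2 lie on opposite sides at the 2 stages.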

How the data were processed

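Dermis was freed of epidermis in calcium- and magnesium-free saline, and TruSeq libraries were sequenced as single reads. STAR appears as aligner in the methods, whereas HTSeq, edgeR, Partek (version 3) and TopHat2 (version 2.1.0) appear in the submitters' processing notes. Which annotation release was counted is not given here. The authors deposited 1 table with a normalized signal, CPM after TMM scaling, so column sums differ between libraries. Of the values of the dorsal and ventral Es22 libraries, 99.9% and 99.95% lay within 0.05 of a whole multiple of 1 read, so reads were recovered. With 1 library a side no residual degree of freedom is left, and no count test was run.

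Kept rows had a mean over both libraries of at least 1 CPM, and log2((dorsal + 1)/(ventral + 1)) was taken. Values of 287 rows with a shared symbol were summed for lists and single genes. The 39 gene lists and the members were chosen with earlier results of these data known. Genes named are the 15 furthest on each side, leaving out rows with a gene number or a LOC symbol, list members past 2-fold, and up to 4 abundant members of a list. Some genes that the rule picks are not reported here. A floor of 3 reads per library stands for 0. Recovery and intervals were tested on simulated data. The alternatives changed the pseudocount (0.1 or 5 CPM), the filter (none or 5 CPM), the scaling, the fold rule (4-fold) and the summing of symbols. Intervals came from scipy 1.17.1, tables from pandas 2.3.3 with numpy 2.4.6 and plots from matplotlib 3.10.9, under Python 3.11.15.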

Additional observations from a re-analysis of the deposited data

Results flagged for a closer look

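Of the genes picked by the naming rule and reported here, 7 were at least 2-fold apart at both stages but in opposite directions. Each rests on 1 library for each region and stage, and the difference between stages was not tested. Over all rows, 10 of 272 dorsal rows (3.68%) and 5 of 197 ventral rows (2.54%) lay past 2-fold on the other side at Es19. Of the 9988 rows kept at Es19, 258 were past 2-fold in dorsal and 289 in ventral dermis. The largest swing was that of DSP, with a log2 difference, dorsal over ventral, of 2.30 at Es22 and -1.75 at Es19, and the keratin KRT8 had 1.76 and -1.09. The integrin subunit ITGA10 had 1.49 and -1.04 and the homeobox gene MSX2 1.75 and -1.17. In the other direction lay RDH10 with -1.01 at Es22 and 2.31 at Es19, the myosin MYH7 with -1.43 and 1.70 and the laminin chain LAMC3 with -1.53 and 1.13. At Es19 and Es22, RDH10 was at 132 and 68.9 CPM in the dorsal and at 25.8 and 140 CPM in the ventral libraries. Levels of DSP, MSX2 and LAMC3 were low at Es19. There DSP was at 0.851 CPM dorsally and 5.22 CPM ventrally, MSX2 at 2.63 and 7.19 CPM and LAMC3 at 7.12 and 2.71 CPM.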

How the results depend on the processing

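The counts of rows past 2-fold, 272 in dorsal and 197 in ventral dermis, depended on how low genes were treated. A pseudocount of 5 CPM gave 130 and 87, and one of 0.1 CPM gave 388 and 342. A mean of at least 5 CPM left 200 and 124, the 4-fold rule 45 and 30, and a counting interval wholly past 2-fold 153 and 108. Median ratio and upper quartile scaling, no filter and summed symbols kept both counts within 1.5 times, as did values without the TMM factors (184 and 277). Naming by the list and rank rules considered 146 genes. Of these, 104 stayed past 2-fold with a pseudocount of 5 and 132 without the TMM factors. Dorsal genes that fell below 2-fold without the TMM factors included LUM, DKK3, FZD10, DLX3, DLX6, CHAD, CILP2, SERPINE2, TRPM1 and SLITRK4. None of the 146 changed sign under the 5 alternatives run on single genes, but this was fixed in advance. The genes were picked as at least 2-fold apart, a pseudocount cannot turn a sign, and the widest rescaling shifted log2 by -0.20. Rows past 2-fold on the same side at Es19 and Es22 numbered 58 and 47. In alternatives added after the data were seen they numbered 27 and 17 with a pseudocount of 5, and the ventral number was 81 with 0.1 and 74 without the TMM factors. No paired analysis was possible because each group holds 1 library, and for the same reason no library could be left out. Differences of genes with few reads, such as TIMP4 and IER5, are limited by depth.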

Other observations

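The S100 genes, small calcium-binding proteins, were looked at after their values were seen. Of 9 with a mean of at least 1 CPM, all 9 were higher in dorsal dermis, with a median log2 difference of 1.21. The 2-fold rule was passed by 6, against 2.68% of all rows on the dorsal side. S100A6 stood at 1431 CPM dorsally and 571 CPM ventrally, S100A9 at 431 and 185 CPM and S100A4 at 288 and 96.0 CPM. Their sum was 2691 CPM dorsally and 1193 CPM ventrally. S100A16 lay on the other side at Es19, with log2 differences of 1.25 at Es22 and -1.18 at Es19. Other gene families were also counted. Past 2-fold in dorsal dermis were 4 of 8 keratins, 2 of 3 serpin B genes, 1 of 6 claudins and 2 of 10 connexins. Over all rows the dorsal share was 2.68%. Whatever the size, 4 of 6 claudins and 6 of 10 connexins were higher in dorsal dermis, each with a median log2 difference of 0.21. Connexins summed to 265 CPM dorsally and 291 CPM ventrally. The 4 keratins are not new here, since KRT8, KRT14 and KRT15 are on the epidermal list and KRT4 was named above. In each of these families 0 were past 2-fold in ventral dermis. The lectin CLEC3B, at 363 CPM dorsally and 61.3 CPM ventrally, and FAM180B, at 148 and 34.0 CPM, both outside the naming rule, were further dorsal genes of high level, and myostatin (MSTN), which limits muscle growth, was at 13.4 CPM ventrally and 2.69 CPM dorsally.

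Rows without a usable symbol held some of the widest differences. Besides gene16783, which was at 4.95 CPM in dorsal and 0.0679 CPM (1 read) in ventral dermis at Es19, LOC100561086L stood at 125 CPM dorsally and 2.37 CPM ventrally at Es22, and at 1.01 and 0.475 CPM at Es19. On the ventral side gene11882 stood at 414 against 49.7 CPM and gene18416 at 477 against 80.2 CPM.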
